A study of Homo sapiens with 12 samples.

Results

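The insulin-like growth factor (IGF) genes examined here were 9 of the 23459 genes in the count table, namely the binding protein genes IGFBP2, IGFBP3, IGFBP4, IGFBP6 and IGFBP7, the receptor genes IGF1R and IGF2R, and the adaptor genes IRS1 and IRS2. They were picked by name for how their levels ran across the 4 groups of the experiment, so their levels and differences are a description of these libraries and carry no test. All 9 passed the filter on low counts, as did 14775 genes in all. The cells were MCF10A, a non-tumorigenic human mammary epithelial line, carrying a lentiviral, doxycycline-inducible YAP5SA, a mutant of the Hippo pathway effector YAP that Hippo kinases no longer restrain. In a second infection they received an expression vector for JUN, a subunit of the AP-1 transcription factor, or the empty vector. They were then treated with doxycycline (Dox, 100 ng/ml) or the same volume of its solvent ethanol (EtOH), which gave 2 groups of vector cells (vector EtOH, vector Dox) and 2 groups of JUN cells (JUN EtOH, JUN Dox) with 3 libraries each. The inducible allele was thus present in all 12 libraries, and none of the groups had Dox without it, so that effects of Dox itself and of YAP5SA cannot be told apart. All groups grew in medium with 10 µg/ml insulin and horse serum, and the cells were antibiotic-selected populations. The design asks how JUN overexpression affects the transcriptional response to YAP.

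IGF1 and IGF2 are small secreted growth factors that signal through the receptor tyrosine kinase IGF1R. The active receptor phosphorylates the adaptors IRS1 and IRS2, which recruit PI3-kinase and switch on AKT, and AKT in turn keeps FOXO transcription factors out of the nucleus. IGF2R lacks a kinase domain and clears IGF2 by endocytosis and lysosomal degradation. The secreted IGF binding proteins hold IGFs with high affinity and so limit or prolong their access to IGF1R, while IGFBP7 is a relative with low affinity for IGFs. At high concentration insulin also activates IGF1R, and MCF10A cells are routinely grown with added insulin.

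Total counts lay between 18594867 and 28993487 per library, and 3 counts, taken as the floor of detection, stood for 0.107 to 0.150 CPM (counts scaled to library size). All 7 basal mammary and all 4 general epithelial markers examined had a mean of at least 1 CPM. Of the markers of other cell types, 2 of 4 for hormone-sensing luminal cells (FOXA1 and GATA3, not ESR1 and PGR), 3 of 5 for fibroblasts (COL1A1, DCN and LUM, not COL3A1 and PDGFRB), 1 of 3 for leukocytes (CD14, up to 30.9 CPM, not PTPRC and CD3E) and 0 of 3 for endothelium (PECAM1, CDH5, VWF) did so. Marker sums moved with both factors. The basal sum was 7452 to 7867 CPM in vector EtOH and 3822 to 4996 in vector Dox, and in JUN cells 5799 to 7393 with EtOH and 3527 to 5619 with Dox. The general epithelial sum was 1525 to 1721 and 1785 to 1791 CPM in vector cells with EtOH and Dox, against 850.3 to 1072 and 576.4 to 949.5 in JUN cells. The fibroblast sum was 8.57 to 12.3 and 5.14 to 5.71 CPM in vector cells, against 19.8 to 32.9 and 14.5 to 23.6 in JUN cells, and the leukocyte sum 24.3 to 31.04 and 4.34 to 5.95 CPM, against 9.20 to 11.8 and 1.45 to 3.52. The luminal sum was 24.3 to 41.1 CPM and the endothelial sum 0.100 to 2.10 CPM over all libraries. The part of these shifts in the values below was not tested. JUN had a mean of 47.6, 189.7, 1279 and 1248 CPM in the order vector EtOH, vector Dox, JUN EtOH, JUN Dox. YAP1, whose count can include reads of the transgene, was at 179.4, 236.5, 234.4 and 279.9 CPM in the same order. Some libraries stood apart from their group. The chi-square per degree of freedom between replicates was 63.8 and 50.9 for vector Dox library 1 against libraries 2 and 3, which differed from each other by 9.75, and 52.9 between JUN Dox libraries 1 and 3. The correlation, over genes, between a gene's GC content and its deviation from the group mean was -0.356 and 0.360 in JUN Dox libraries 1 and 3 and -0.203 and 0.223 in JUN EtOH libraries 1 and 3. Differences are on the log2 scale with their standard error (SE) from 1 edgeR quasi-likelihood fit to all 12 libraries, and a gene is termed called where its Benjamini-Hochberg adjusted p was under 0.05; for the 9 members this is a description only. For YAP1 the log2 difference on induction was 0.40 (SE 0.16) in vector and 0.26 (SE 0.16) in JUN cells, and neither was called. In bulk RNA, a change in the number of cells with a transcript and a change in RNA per cell cannot be told apart.

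The promoters of IGFBP3, IRS1 and IGFBP6 are shown because these genes were the 2 members with the highest induction and the most abundant binding protein transcript. Each line gives the 250 bases upstream of the transcription start from RefSeq (GRCh38.p14), read 5′ to 3′ on the strand of the gene. Capitals mark matches to the letters searched on both strands, which were the AP-1 motif TGACTCA, the cyclic AMP response element TGACGTCA, the core GGAATG of the motif of TEAD (the DNA-binding partner of YAP), the FOXO motif GTAAACA and the TATA box letters TATAAA or TATATA. The regions are chr7:45921273-45921522 (minus strand) for IGFBP3, chr2:226799821-226800070 (minus strand) for IRS1 and chr12:53097417-53097666 (plus strand) for IGFBP6.
IGFBP3: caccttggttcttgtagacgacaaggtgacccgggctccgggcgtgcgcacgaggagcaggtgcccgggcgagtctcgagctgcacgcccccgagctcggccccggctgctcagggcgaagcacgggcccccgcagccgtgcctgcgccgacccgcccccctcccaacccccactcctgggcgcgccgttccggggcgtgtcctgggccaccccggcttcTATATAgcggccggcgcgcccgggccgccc
IRS1: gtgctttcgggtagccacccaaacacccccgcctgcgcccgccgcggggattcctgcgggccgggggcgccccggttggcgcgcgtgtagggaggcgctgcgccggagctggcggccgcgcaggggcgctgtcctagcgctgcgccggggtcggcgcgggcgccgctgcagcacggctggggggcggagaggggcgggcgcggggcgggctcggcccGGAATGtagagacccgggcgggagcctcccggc
IGFBP6: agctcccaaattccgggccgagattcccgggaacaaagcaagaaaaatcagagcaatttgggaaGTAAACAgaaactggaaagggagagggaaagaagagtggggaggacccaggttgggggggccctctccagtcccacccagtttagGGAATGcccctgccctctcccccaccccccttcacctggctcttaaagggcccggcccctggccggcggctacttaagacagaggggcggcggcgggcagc

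The IGFBP3 window held a TATA match that began 30 bases before the start and none of the other letters searched. In IRS1 the TEAD core began 33 bases before the start. IGFBP6 had the TEAD core 101 bases and the FOXO letters 186 bases before its start. A window was listed for 8 of the 9 members, with IGFBP7 missing and 3 windows for IGFBP2. The only other match in these 10 windows was TATAAA, 29 bases before the start of IGFBP4, and none of them held the AP-1 or cyclic AMP letters. Among 34943 promoter windows of this length, 4.22% held TGACTCA, 1.63% TGACGTCA, 11.9% GGAATG, 2.98% GTAAACA and 12.8% one of the TATA forms. These letters are descriptions of the windows and do not show binding, and enhancers were not examined.

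IGFBP3, the main carrier of IGFs in the circulation and known also for growth-restraining actions of its own, showed the highest induction of the 9 genes (Entrez gene 3486, GRCh37 chromosome 7, 45951844 to 45961473, minus strand). Its level was 1.56, 1.15 and 1.21 CPM in the vector EtOH libraries and 101.9, 76.2 and 73.8 CPM in vector Dox. In JUN EtOH it stood at 6.91, 4.85 and 5.07 CPM, and in JUN Dox at 130.9, 71.3 and 70.6 CPM. Every Dox library thus lay above every EtOH library, JUN EtOH lay above vector EtOH, and the Dox groups overlapped. The counts behind the lowest group were 41, 23 and 27 reads, against 1690 to 2337 reads in vector Dox.

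The IGFBP3 level was multiplied by 63.3 with Dox in vector cells, a log2 difference of 5.98 (SE 0.29). This difference ranked 4th from the top of the 14775 genes tested. In JUN cells the factor was 16.2 (log2 difference 4.02, SE 0.25, rank 9). JUN alone gave a log2 difference of 2.08 (SE 0.31), or 4.23-fold. Under induction the JUN vector left IGFBP3 0.11 apart on the log2 scale (SE 0.21, 95% interval -0.29 to 0.52). The log2 induction was accordingly lower in JUN cells by 1.97 (SE 0.38), which was called. Without vector EtOH library 2, vector EtOH library 3 or JUN EtOH library 1 this value was -1.88, -1.91 or -1.79 and no longer called. The EtOH level was higher in JUN than in vector cells, while the Dox levels overlapped. JUN Dox library 1 carried the highest value, and without it the induction in JUN cells was 3.66 and the difference between the Dox groups -0.24.

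**Figure D1:**
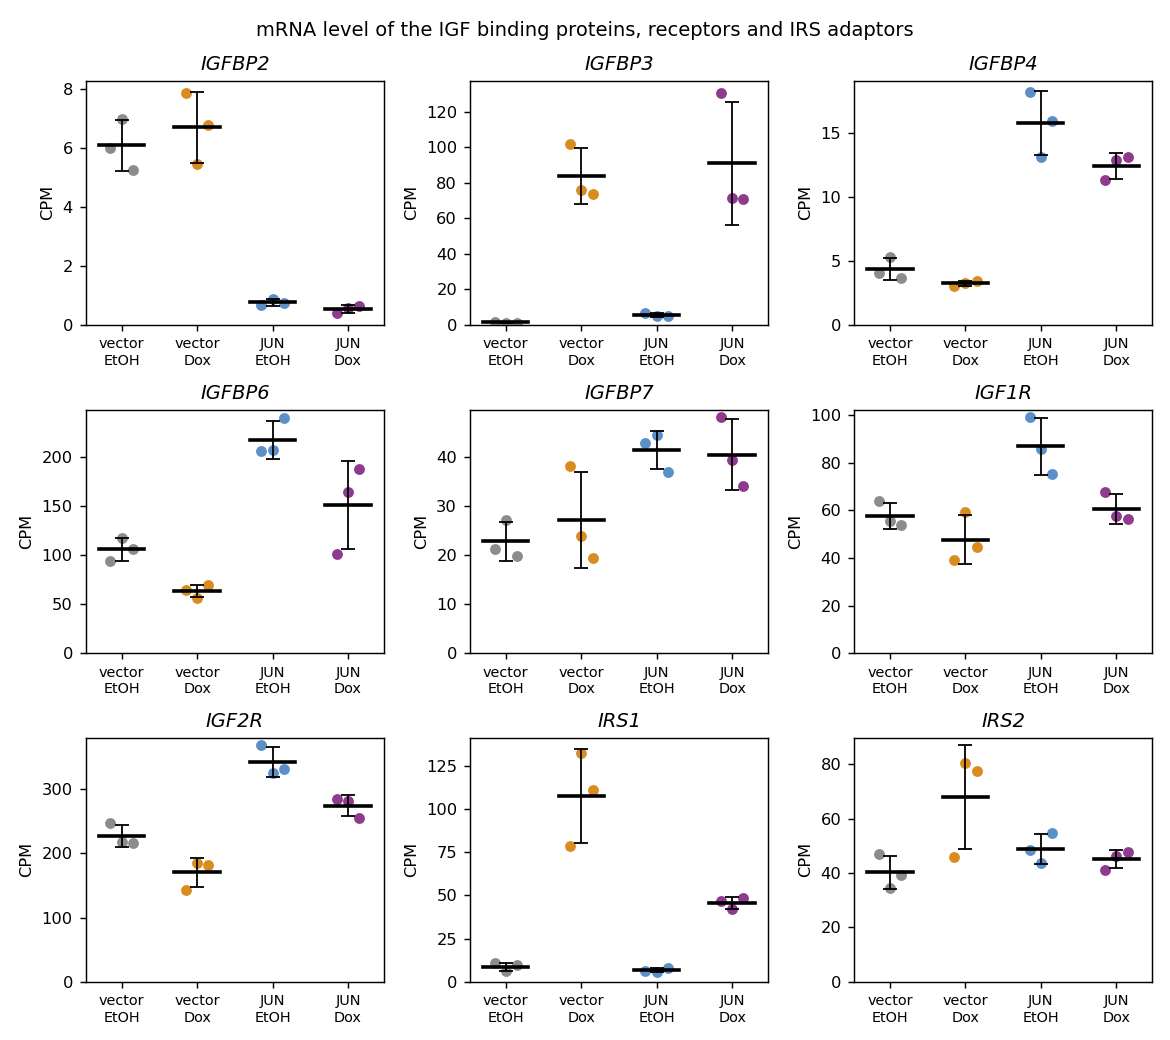
CPM of the 9 genes in the 12 libraries, 1 panel per gene with an axis that starts at 0; points are libraries, horizontal lines group means and bars the SD (n = 3). IGFBP3 and IRS1 are high in both Dox groups, IGFBP2 is at or below 0.885 CPM in all 6 JUN libraries, and IGFBP4 and IGFBP6 are higher in JUN cells than in vector cells under the same treatment.

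IGFBP2, an IGF-binding protein often abundant in epithelial tumors, was lower in JUN cells (Entrez gene 3485, chromosome 2, 217497551 to 217529159, plus strand). Vector cells had 6.01, 6.99 and 5.25 CPM with EtOH and 7.85, 5.45 and 6.77 CPM with Dox. JUN cells had 0.660, 0.885 and 0.751 CPM with EtOH and 0.401, 0.562 and 0.640 CPM with Dox, from 8 to 21 reads per library. The JUN and vector libraries did not overlap under either treatment. The log2 difference for JUN was -2.98 (SE 0.23) without and -3.61 (SE 0.24) with induction, or 7.87-fold and 12.2-fold lower, which ranked 35th and 18th from the bottom of all genes tested. Induction itself gave 0.14 (SE 0.18) in vector and -0.49 (SE 0.30) in JUN cells, and neither was called.

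IGFBP4, which restrains IGFs until the protease PAPP-A cleaves it, was higher in JUN cells (Entrez gene 3487, chromosome 17, 38599702 to 38613977, plus strand). Its level was 4.07, 5.29 and 3.63 CPM in vector EtOH and 3.01, 3.29 and 3.39 CPM in vector Dox, and in JUN cells 18.2, 13.15 and 16.0 CPM with EtOH and 11.3, 12.8 and 13.11 CPM with Dox. All JUN libraries lay above all vector libraries. JUN gave a log2 difference of 1.87 (SE 0.16) without and 1.94 (SE 0.17) with induction. The Dox libraries lay below the EtOH libraries in both cell populations, in JUN cells by no more than 13.11 against 13.15 CPM at the nearest pair, and neither difference was called, at -0.42 (SE 0.18) and -0.34 (SE 0.15).

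IGFBP6, a binding protein with a marked preference for IGF2, had the highest level per length among the binding proteins in every group (Entrez gene 3489, chromosome 12, 53491220 to 53496129, plus strand). It was at 93.8, 117.2 and 106.5 CPM in vector EtOH and at 64.7, 56.6 and 69.1 CPM in vector Dox. JUN cells had 205.9, 206.9 and 239.2 CPM with EtOH and 101.3, 164.5 and 187.3 CPM with Dox. Dox libraries were below EtOH libraries and JUN libraries above vector libraries of the same treatment, without overlap. Induction gave a log2 difference of -0.74 (SE 0.17) in vector and -0.52 (SE 0.17) in JUN cells, and JUN one of 1.04 (SE 0.17) without and 1.25 (SE 0.18) with induction. The lowest JUN Dox value came from library 1, and without it the induction value in JUN cells was -0.31. That call was lost in 9 of 21 other settings, 8 of which leave out 1 library and gave -0.59 to -0.31. With the GC trend of the libraries as a covariate the value was -0.60.

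IGFBP7, the low-affinity relative also known as a secreted tumor suppressor, was higher in JUN EtOH than in vector EtOH (Entrez gene 3490, chromosome 4, 57896939 to 57976551, minus strand). The levels were 21.3, 27.3 and 19.9 CPM in vector EtOH and 38.2, 24.02 and 19.4 CPM in vector Dox, and in JUN cells 43.0, 44.5 and 37.1 CPM with EtOH and 48.3, 39.5 and 34.1 CPM with Dox. That log2 difference was 0.87 (SE 0.21), without overlap. The Dox groups overlapped, with vector Dox library 1 inside the JUN range, and the log2 difference between them was 0.58 (SE 0.21), or 0.91 without that library. It was called, but lost the call in 9 of 21 other settings, among them without vector Dox library 3 (0.38) or JUN Dox library 1 (0.44). Induction gave 0.25 (SE 0.21) and -0.04 (SE 0.20) in vector and JUN cells. These values are uncertain, since the span of IGFBP7 overlaps POLR2B and IGFBP7-AS1, with mean counts of 2237 and 330 beside 757.6 for IGFBP7, and the use of strand in counting was not given in the sources used here. IGFBP7-AS1 was at 8.30, 9.11, 21.6 and 18.6 CPM in the order vector EtOH, vector Dox, JUN EtOH, JUN Dox, and POLR2B at 85.9, 100.4, 100.5 and 102.3 CPM.

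To compare the binding proteins with each other, the levels were divided by the union exon length of each gene. The summed level of the 5 transcripts was 94.0 ± 10.7 CPM per kb in vector EtOH and 82.5 ± 9.84 in vector Dox, and in JUN cells 191.6 ± 12.1 with EtOH and 158.9 ± 22.6 with Dox (SD, n = 3). Every JUN library, at 134.1 CPM per kb or more, lay above every vector library, at 105.3 or less. IGFBP6 made up 83.7% ± 1.65, 57.4% ± 6.11, 84.2% ± 2.03 and 69.5% ± 11.7 of this sum in the same order (SD, n = 3). The share of IGFBP3 was 0.310% ± 0.0859 in vector EtOH and 22.2% ± 1.97 in vector Dox, and in JUN cells 0.644% ± 0.150 with EtOH and 13.2% ± 7.10 with Dox. In JUN Dox the IGFBP3 share was 21.4% in library 1 and 9.50% and 8.67% in the others. Per length of the longest transcript, the IGFBP3 share was 29.5% in vector Dox and 18.1% in JUN Dox.

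**Figure D2:**
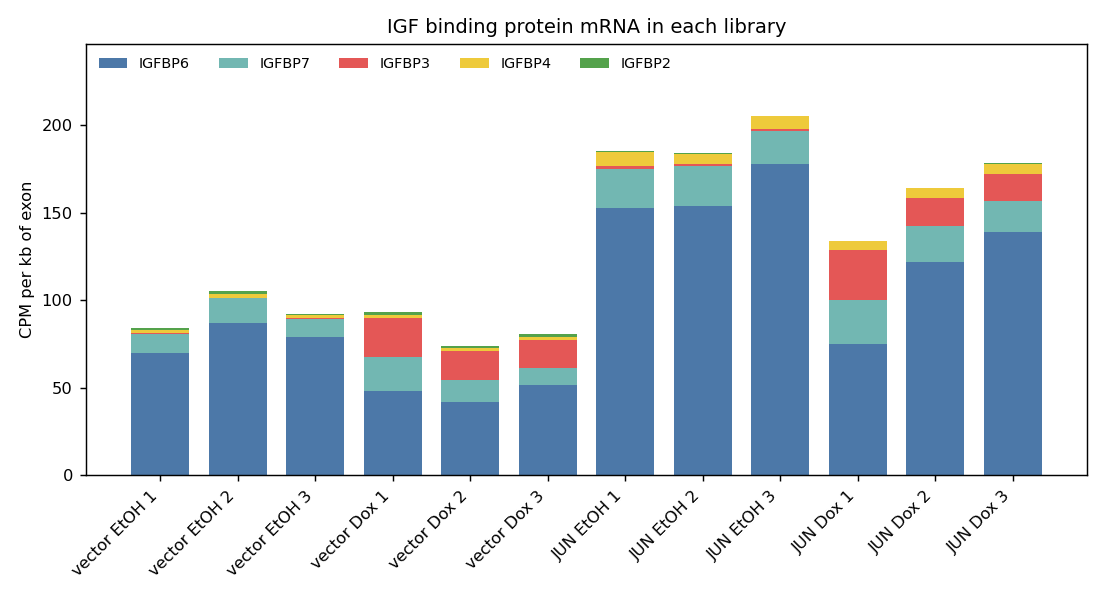
Stacked levels of the 5 binding protein transcripts in each library, in CPM per kb of union exon length. IGFBP6 is the tallest segment in each of the 12 libraries, the IGFBP3 segment is visible in the Dox libraries, and the bars of JUN cells are above 134 CPM per kb.

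The receptor genes were at most 0.69 apart on the log2 scale in the pairwise comparisons. IGF1R, the signalling receptor, had 64.1, 55.5 and 53.7 CPM in vector EtOH and 39.2, 59.2 and 44.6 CPM in vector Dox (Entrez gene 3480, chromosome 15, 99191768 to 99507759, plus strand). JUN cells had 99.3, 85.9 and 75.4 CPM with EtOH and 67.8, 57.8 and 56.3 CPM with Dox. JUN EtOH stood above the other groups in all 3 libraries, and the remaining groups overlapped one another. The log2 difference was 0.59 (SE 0.15) for JUN without induction, -0.52 (SE 0.15) for induction in JUN cells, -0.28 (SE 0.15) for induction in vector cells and 0.35 (SE 0.15) for JUN with induction, of which the latter pair was not called. Without vector Dox library 2, the highest of its group, that pair was -0.47 and 0.54 and was called. JUN with induction was also called with the GC trend of the libraries as a covariate, at 0.36. The same held with that covariate and the replicate number as a block (0.36). The call on induction in JUN cells was lost without JUN EtOH library 1 (-0.41), JUN EtOH library 2 (-0.53), JUN Dox library 2 (-0.49) or JUN Dox library 3 (-0.47).

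IGF2R, the clearance receptor for IGF2, was at 247.5, 217.3 and 216.5 CPM in vector EtOH and 143.6, 185.5 and 181.9 CPM in vector Dox, and in JUN cells 368.6, 324.7 and 332.1 CPM with EtOH and 285.0, 282.3 and 255.8 CPM with Dox (Entrez gene 3482, chromosome 6, 160390114 to 160534539, plus strand). The 4 groups did not overlap and ran in the order vector Dox, vector EtOH, JUN Dox, JUN EtOH. JUN gave log2 differences of 0.59 (SE 0.11) without and 0.69 (SE 0.11) with induction. Induction gave -0.42 (SE 0.11) in vector cells, which was called except without vector EtOH library 1 (-0.35), and -0.32 (SE 0.11) in JUN cells, which was not, but was in 6 of 21 other settings (-0.35 to -0.31), among them without vector Dox library 1 (-0.32). Per length, IGF2R was above IGF1R in every group, at 10.0 against 4.14 CPM per kb in vector EtOH and 12.1 against 4.35 in JUN Dox.

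IRS1, the adaptor that couples IGF1R and the insulin receptor to PI3-kinase, was the other strongly induced gene (Entrez gene 3667, chromosome 2, 227596028 to 227664536, minus strand). Its level was 10.6, 6.14 and 9.51 CPM in vector EtOH and 78.9, 132.8 and 111.4 CPM in vector Dox. In JUN cells it was 6.34, 5.82 and 8.17 CPM with EtOH and 47.0, 41.9 and 48.4 CPM with Dox. The EtOH groups overlapped, vector Dox lay highest, and JUN Dox lay between. Induction gave a log2 difference of 3.61 (SE 0.21), or 12.2-fold, in vector cells and 2.76 (SE 0.21), or 6.77-fold, in JUN cells, the 29th and 28th highest of all genes tested. JUN gave -0.38 (SE 0.22) without induction and -1.23 (SE 0.19) with it. The log2 induction was lower by 0.85 (SE 0.29) in JUN cells, and this difference was not called, except without vector Dox library 1 (-1.03).

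IRS2, the second adaptor of this kind, was at 46.9, 34.6 and 39.2 CPM in vector EtOH and 45.9, 80.5 and 77.4 CPM in vector Dox, and in JUN cells 48.4, 43.8 and 54.8 CPM with EtOH and 41.3, 46.4 and 47.9 CPM with Dox (Entrez gene 8660, chromosome 13, 110405042 to 110438930, minus strand). Only vector Dox libraries 2 and 3 stood clear of the rest, and library 1 fell within the range of vector EtOH. The log2 difference on induction was 0.75 (SE 0.18) in vector and -0.12 (SE 0.18) in JUN cells, and JUN with induction gave -0.59 (SE 0.18). The latter was called, but not without vector Dox library 2 (-0.44), vector Dox library 3 (-0.48) or JUN Dox library 1 (-0.52). The log2 induction of IRS2 was lower by 0.87 (SE 0.25) in JUN cells, which was not called, except with DESeq2 (-0.88) and without vector Dox library 1 (-1.08). Without that library, which had the lowest IRS1 and IRS2 levels of its group, the induction in vector cells was 3.78 for IRS1 and 0.96 for IRS2. Per exon length, IRS1 made up 14.9% ± 2.02 of the sum of IRS1 and IRS2 in vector EtOH and 56.5% ± 2.31 in vector Dox, and in JUN cells 10.1% ± 0.655 with EtOH and 45.2% ± 2.84 with Dox (SD, n = 3). IRS1 exceeded IRS2 in all 3 vector Dox libraries, with shares from 53.9% to 58.3%, and in no other library.

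**Figure D3:**
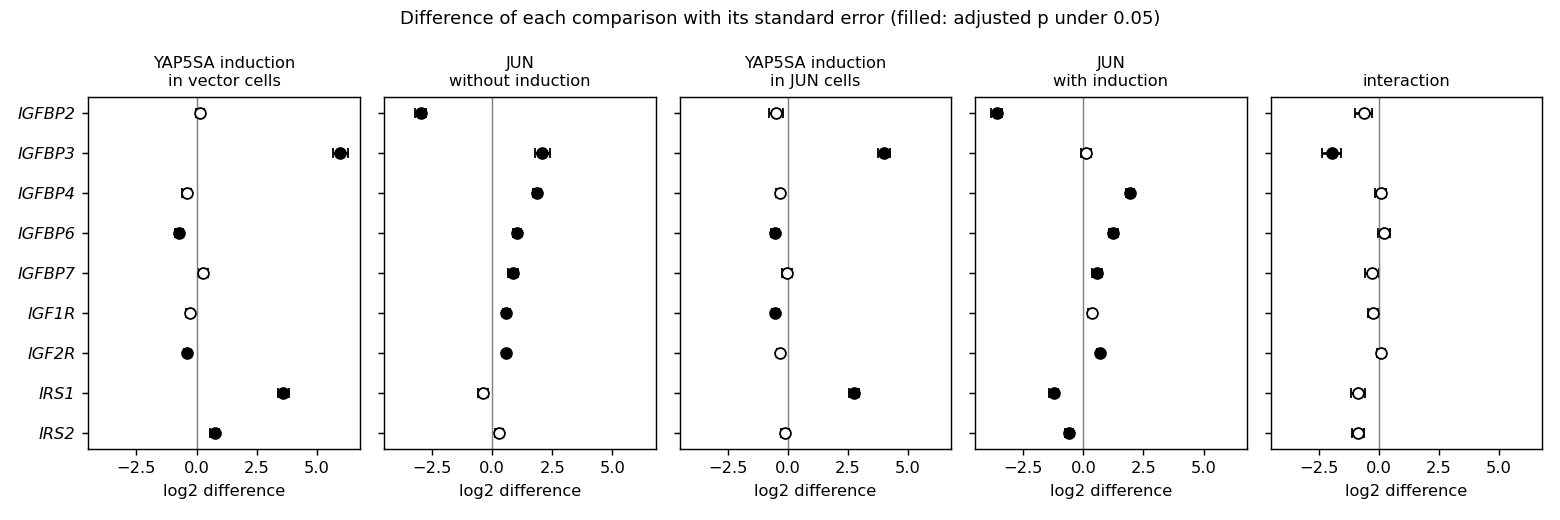
Log2 difference with its SE for the 9 genes in the 4 pairwise comparisons and in the interaction, which is the log2 induction of JUN cells less that of vector cells. Filled points had an adjusted p under 0.05 in the edgeR fit; IGFBP3 and IRS1 lie farthest right on induction, IGFBP2 farthest left with JUN, and IGFBP3 is the filled point of the interaction.

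Over all genes tested, 30.1% were called on induction in vector cells (edgeR quasi-likelihood test, Benjamini-Hochberg adjusted p under 0.05), and 5 of the 9 members were, with 3 higher (15.6% of all genes) and 2 lower (14.4%). JUN without induction called 39% of all genes and 7 members, 6 higher (20.1%) and 1 lower (18.9%). Induction in JUN cells called 21.4% of all genes and 4 members, 2 higher (11.2%) and 2 lower (10.3%). JUN with induction called 35.6% of all genes and 7 members, 4 higher (18.4%) and 3 lower (17.2%). The interaction called 1.12% of all genes (0.826% lower) and, of the members, IGFBP3 as lower. Groups did not overlap for 5, 7, 7 and 5 members in the 4 pairwise comparisons, against 43.9%, 57.8%, 39.3% and 43.4% of all genes. The median log2 difference of the members was 0.14, 0.59, -0.32, 0.35 and -0.29 in these 5 comparisons, beside 0.0072, 0.00056, 0.0032, 0.0030 and 0.012 over all genes tested. The members were chosen from these same levels, so nothing is read from these counts. The comparisons also share groups, since vector EtOH enters the first pair and JUN Dox the next pair.

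Just outside the 9 genes, the other ligands and binding proteins were at or near 0. IGFBP1, which neighbours IGFBP3 at 45927959 to 45933259 on chromosome 7, had 0 reads in all 12 libraries, which allows a level of up to 0.107 to 0.150 CPM depending on the library. IGFBP5, next to IGFBP2 on chromosome 2 at 217536828 to 217560272, had 10 reads in the 12 libraries together. IGF1 had 21 reads and IGF2 had 20, of which 11 were in vector EtOH library 2. The IGF2 count may share reads with the overlapping readthrough gene INS-IGF2. IGFBPL1, IGFALS, INSRR, IRS4 and INS also failed the filter, so that 17 of 26 further genes of the IGF axis were tested.

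The shares of all genes called, given above, are the background for these lists, which were chosen with earlier results of these data known. As for the members, nothing is read from the counts of listed genes. Among these 17 genes, 8 were called on induction in vector cells (2 higher, 6 lower), beside 30.1% of all genes tested. JUN without induction called 12 (7 higher, 5 lower), beside 39%. In JUN cells 7 were called on induction (2 higher, 5 lower), beside 21.4%. JUN with induction called 9 (5 higher, 4 lower), beside 35.6%. The median log2 difference was -0.25, 0.05, -0.26 and 0.03, and no gene was called in the interaction (edgeR), with 1 at an unadjusted p under 0.05. The stanniocalcins STC1 and STC2, both secreted inhibitors of the PAPP-A proteases, went in opposite directions.

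STC1 fell on induction and rose with JUN. Its levels were 19.01, 12.5 and 15.7 CPM in vector EtOH and 5.89, 7.17 and 6.28 CPM in vector Dox, and in JUN cells 99.0, 57.3 and 54.4 CPM with EtOH and 36.7, 30.2 and 27.4 CPM with Dox. The log2 difference was -1.29 (SE 0.23, edgeR adjusted p 0.00061) on induction in vector cells and 2.15 (SE 0.21, edgeR adjusted p 2.9e-06) for JUN without induction. STC2 rose on induction and fell with JUN, from 58.0 ± 5.27 CPM in vector EtOH to 126.3 ± 11.9 in vector Dox and 27.9 ± 5.73 in JUN EtOH, with 56.9 ± 6.57 in JUN Dox (SD, n = 3). The edgeR adjusted p of STC2 was 2.7e-05 on induction in vector cells (log2 difference 1.12, SE 0.14) and 5.7e-05 for JUN without induction (-1.06, SE 0.14). For both genes all 3 libraries lay beyond the other group in each pairwise comparison.

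PAPPA, the protease that cleaves IGFBP4, rose with JUN as IGFBP4 did. It had 16.8 ± 3.04 CPM in vector EtOH and 14.3 ± 3.84 in vector Dox, and in JUN cells 54.9 ± 6.82 with EtOH and 43.9 ± 4.37 with Dox (SD, n = 3). The log2 difference was 1.70 (SE 0.18, edgeR adjusted p 5.1e-06) without and 1.61 (SE 0.18, edgeR adjusted p 8.9e-06) with induction, higher in 3 of 3 libraries each time. On induction it was not called in vector cells (edgeR adjusted p 0.37) or in JUN cells (edgeR adjusted p 0.21). PAPPA, IGFBP4 and the inhibitor STC1 were thus all higher with JUN under both treatments, while STC2 was lower.

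LRP1, an endocytic receptor with many ligands that include IGFBP3, was at 17.5 ± 2.62, 5.49 ± 2.05, 43.6 ± 1.29 and 18.7 ± 2.14 CPM in the order vector EtOH, vector Dox, JUN EtOH, JUN Dox (SD, n = 3). It fell on induction in vector cells by 1.67 on the log2 scale (SE 0.21) and rose with JUN by 1.32 (SE 0.19), beyond the other group in 3 of 3 libraries each, at edgeR adjusted p of 2.6e-05 and 9.2e-05. Its values are uncertain because it overlaps STAT6, with mean counts of 488 and 2668. STAT6 was at 115.2, 76.3, 159.3 and 112.1 CPM in the same order.

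INSR, the insulin receptor, fell on induction in vector and JUN cells and rose with JUN under both treatments, with absolute log2 differences of 0.40 to 0.45 and edgeR adjusted p from 0.012 to 0.018. Each of these calls was lost in 1 to 3 of 21 other settings. Induction was not called in vector cells without vector EtOH library 1 (-0.38) or 3 (-0.41), nor in JUN cells without JUN EtOH library 2 (-0.44). JUN was not called without induction when vector EtOH library 2 was left out (0.33), nor with induction when vector Dox library 1 (0.31) or JUN Dox library 2 (0.39) was left out. SH2B2, an adaptor of the insulin receptor, was at 3.43 ± 0.411 CPM in vector EtOH and at 1.497 ± 0.276 CPM in JUN EtOH (SD, n = 3), and fell with JUN by 1.19 on the log2 scale (SE 0.25, edgeR adjusted p 0.0018).

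Downstream, all 33 genes of the list for the PI3K, AKT and FOXO branch were tested. On induction 16 were called in vector cells (5 higher, 11 lower), beside 30.1% of all genes tested. In JUN cells 11 were called on induction (4 higher, 7 lower), beside 21.4%. JUN called 17 without induction (13 higher, 4 lower), beside 39%, and 13 with it (11 higher, 2 lower), beside 35.6%. The interaction called none in edgeR, with 4 at an unadjusted p under 0.05. The median log2 difference was -0.10, 0.01, -0.08 and 0.19 for induction in vector cells, JUN without induction, induction in JUN cells and JUN with induction. AKT1, AKT2, MTOR, RPTOR and RPS6KB1, which encode core kinases and a scaffold of the pathway, were not called in any of the comparisons.

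DDIT4, a stress-induced inhibitor of the mTORC1 kinase complex, fell most clearly on induction. It had 724.0 ± 43.7 CPM in vector EtOH and 153.0 ± 18.1 in vector Dox, and in JUN cells 693.6 ± 113 with EtOH and 141.7 ± 28.7 with Dox (SD, n = 3). The log2 difference on induction was -2.24 (SE 0.16, edgeR adjusted p 1.1e-07) in vector cells and -2.29 (SE 0.16, edgeR adjusted p 2.7e-07) in JUN cells. With JUN it was -0.06 (95% interval -0.37 to 0.24, edgeR adjusted p 0.78) without induction.

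FOXO1, a transcription factor restrained by AKT, fell on induction by 1.54 in vector cells (SE 0.16, edgeR adjusted p 5.0e-06) and by 1.94 in JUN cells (SE 0.16, edgeR adjusted p 1.0e-06) on the log2 scale. Its levels were 97.3, 81.5 and 106.3 CPM in vector EtOH and 23.5, 37.9 and 36.6 CPM in vector Dox, and in JUN cells 164.0, 169.9 and 184.7 CPM with EtOH and 38.8, 50.1 and 46.3 CPM with Dox. FOXO1 also rose with JUN, by 0.86 without (SE 0.16, edgeR adjusted p 0.00065) and by 0.47 with induction (SE 0.16, edgeR adjusted p 0.035), the latter not without vector Dox library 1 (0.28), JUN Dox library 2 (0.38) or JUN Dox library 3 (0.45). PIK3R1, the main regulatory subunit of PI3-kinase, fell on induction from 100.7 ± 14.4 to 44.5 ± 11.9 CPM in vector cells (SD, n = 3), by 1.18 (SE 0.16, edgeR adjusted p 5.2e-05), and by 1.21 in JUN cells (SE 0.16, edgeR adjusted p 6.8e-05).

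With JUN, the catalytic subunit gene PIK3CD rose by 1.53 on the log2 scale (SE 0.11, edgeR adjusted p 1.3e-07) without and by 1.92 (SE 0.11, edgeR adjusted p 1.5e-08) with induction, but it overlaps CLSTN1, whose mean count was 7562 beside 416 for PIK3CD, and is uncertain. CLSTN1 was at 319.7, 210.1, 425.5 and 351.5 CPM in the order vector EtOH, vector Dox, JUN EtOH, JUN Dox. On induction PIK3CD gave -0.34 (SE 0.12, edgeR adjusted p 0.038) in vector cells and 0.05 (SE 0.11, edgeR adjusted p 0.81) in JUN cells. SOCS3, a feedback inhibitor of cytokine and insulin receptors, rose with JUN from 15.8 ± 0.555 to 31.4 ± 4.74 CPM (SD, n = 3), by 0.99 (SE 0.12, edgeR adjusted p 2.6e-05). Its log2 difference on induction was -0.66 (SE 0.13, edgeR adjusted p 0.0013) in vector cells and -0.41 (SE 0.12, edgeR adjusted p 0.025) in JUN cells. SOCS1, a relative of SOCS3, was at 0.626 ± 0.312 CPM in vector EtOH and 7.81 ± 0.660 CPM in JUN EtOH, a log2 difference of 3.63 (SE 0.30, edgeR adjusted p 4.0e-07). In vector Dox it had 1, 0 and 2 reads, under the floor, so no fold is given against that group, and its overlap with RMI2 (mean counts 64.5 and 373.8) makes it uncertain.

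**Figure D4:**
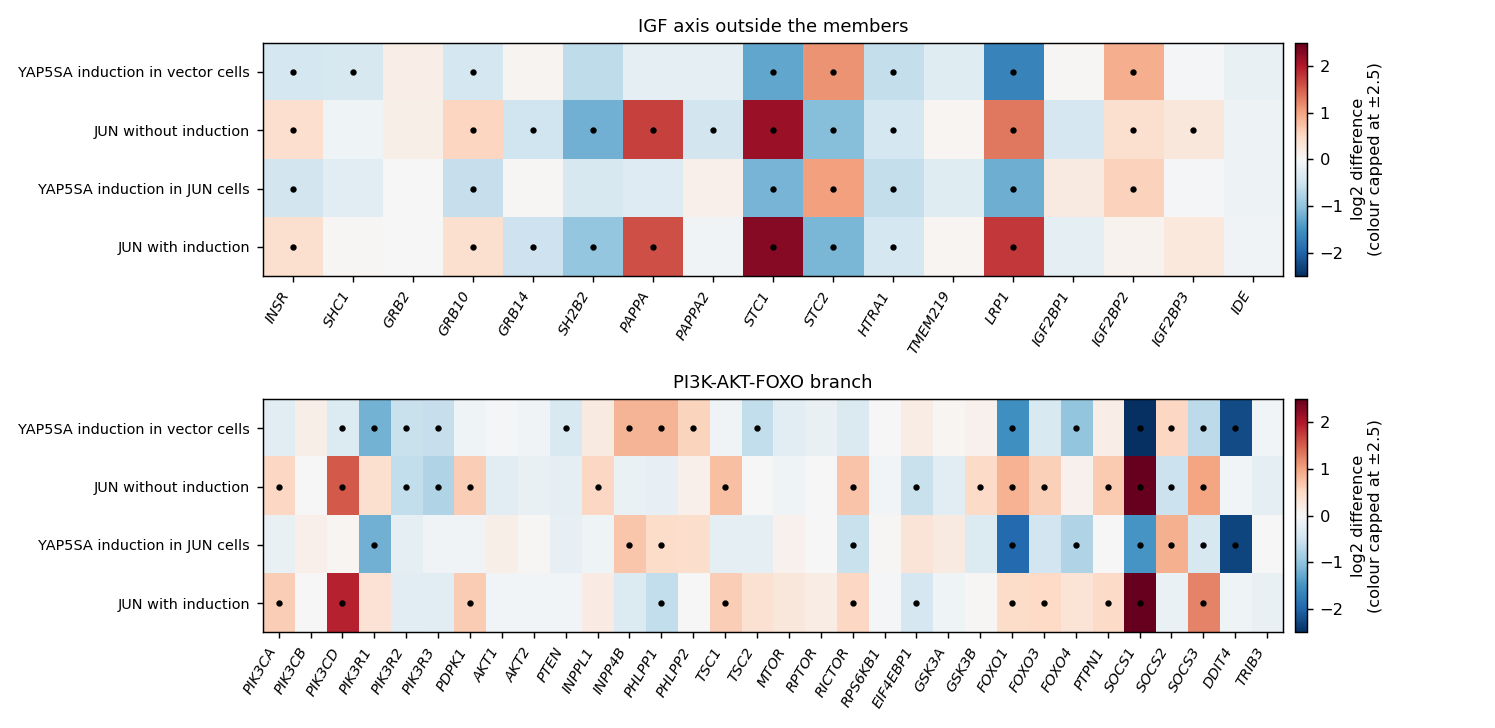
Log2 differences of the 17 tested genes of the IGF axis outside the 9 members and of 32 of the 33 genes of the PI3K, AKT and FOXO branch, as colours for the 4 pairwise comparisons (red higher, blue lower, capped at ±2.5). Dots mark an edgeR adjusted p under 0.05; STC1, PAPPA and LRP1 are red in both JUN rows, and DDIT4, FOXO1 and PIK3R1 are blue in both induction rows. The SOCS1 colours against vector Dox rest on 0 to 2 reads.

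The genes whose group means ran most like those of a member were sought among 11357 genes that averaged 5 CPM or more, by the root mean square difference of centred log2 group means over the 4 groups. This likeness rests on 4 values per gene. It is not scaled to the range of a gene, so its size cannot be compared between members. For IGFBP3 the nearest were ADM, the gene of the vasodilator peptide adrenomedullin (0.38), CCN1 (0.86), the noncoding RNA gene SFTA1P (0.89), the protease gene ADAMTS1 (0.98) and the sphingosine phosphate receptor gene S1PR1 (1.02). ADM had 6.88 ± 0.701, 347.5 ± 87.6, 25.3 ± 2.76 and 222.0 ± 24.5 CPM in the order vector EtOH, vector Dox, JUN EtOH, JUN Dox (SD, n = 3), and so shared with IGFBP3 the high Dox and the raised JUN EtOH level. In the order ADM, CCN1, SFTA1P, ADAMTS1, S1PR1, JUN without induction gave log2 differences of 1.88, -0.16, 0.66, -0.10 and 1.13, beside 2.08 for IGFBP3. JUN with induction gave -0.65, -0.82, -0.98, 1.62 and 0.27, beside 0.11. The interaction was -2.53, -0.66, -1.64, 1.72 and -0.86, beside -1.97, so ADAMTS1 was opposite in sign.

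For IRS1 the nearest were NRG1, a ligand of ErbB receptors (0.14), and CCN2 (0.31). CCN1 and CCN2 are secreted matricellular proteins, commonly used as YAP target genes, whose N-terminal module resembles that of the IGF binding proteins. NRG1 had 1.61 ± 0.386, 26.1 ± 3.54, 1.45 ± 0.123 and 9.07 ± 0.498 CPM in the order vector EtOH, vector Dox, JUN EtOH, JUN Dox (SD, n = 3). CCN2 had 16.8 ± 3.66, 186.9 ± 18.0, 7.43 ± 1.38 and 72.4 ± 2.58 CPM in the same order. JUN without induction gave log2 differences of -0.17 for NRG1 and -1.19 for CCN2, beside -0.38 for IRS1, and only that of CCN2 was called. JUN with induction gave -1.52 and -1.37, beside -1.23. The interaction was -1.35 and -0.18, beside -0.85. For IGFBP6 the nearest genes were the retinoid isomerase gene RPE65 (0.023) and the scaffold gene TANC2 (0.057). For IGFBP4 they were TCAF2 (0.049) and the adhesion gene NRCAM (0.073). For IGFBP2 they were SUSD2 (0.19) and AIF1L (0.24), which were at 37.8 ± 6.03 and 28.2 ± 1.51 CPM in vector EtOH and at 4.29 ± 1.05 and 2.82 ± 1.08 CPM in JUN EtOH.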

How the data were processed

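RNA sequencing of the 12 libraries was examined from the raw counts of reads per gene that the authors deposited. Per the study's methods, poly(A) RNA was read single-end, trimmed with cutadapt (4.2), aligned to hg19 with Bowtie2 (2.3.5.1) and assigned with countOverlaps. The versions are those of the submitters' processing notes, while the methods name an earlier Bowtie2 version. Junction reads are largely lost with Bowtie2. Annotation and use of strand were not given in the sources used here, so overlapping genes can share reads. The methods call the replicates biological. They differed beyond counting noise (chi-square per degree of freedom 8.26 to 63.8).

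Positions and exon lengths are GENCODE v44lift37 on GRCh37, and 99.4% of IDs had a symbol. CPM used TMM factors. After filterByExpr (minimum count 10, total 15), the robust quasi-likelihood test of edgeR 4.0.16 (R 4.3.3) was fitted to all 12 libraries, with Benjamini-Hochberg adjustment over 14775 genes at 0.05. The SE is the log2 difference over the root of F. Without molecular identifiers, the floors stand for counting error alone.

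The members and lists were chosen with earlier results of these data known. Named were JUN, YAP1, the members, IGF1, IGF2, IGFBP1, IGFBP5, INSR, listed genes called at an absolute log2 difference of at least 1 and a mean of at least 1 CPM, and the 5 genes most like IGFBP3 and 2 most like each other member with such a difference. AKT1, AKT2, MTOR, RPTOR and RPS6KB1 were chosen after their values were seen. The values of 1 listed gene are not reported here, though the list counts include it. Alternatives were DESeq2 1.42.0 (the tool of the authors), RLE or upper-quartile factors, no filter or a mean of 5 CPM, only the libraries compared, the replicate number as a block, the GC trend as a covariate, both together, longest transcripts and leaving out each library.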

Additional observations from a re-analysis of the deposited data

Results flagged for a closer look

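The log2 induction of IGFBP3 was lower in JUN than in vector cells, with a difference of -1.97 (SE 0.38) that passed the threshold in the test of the difference itself. IGFBP3 was higher with Dox in 3 of 3 libraries of both cell populations. The Dox levels of JUN and vector cells overlapped, with a log2 difference of 0.11 (SE 0.21) that was not called. The EtOH level was higher in JUN cells, by 2.08 (SE 0.31), over 41, 23 and 27 reads in vector EtOH. The members had been chosen from these levels, so the value is a description.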

How the results depend on the processing

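No reported value that was called changed its direction under the alternatives run. The counts of called members moved by over 1.5 times on induction in JUN cells, where leaving out single libraries gave 2 to 5 in place of 4 (2 without JUN EtOH 1, JUN EtOH 2 or JUN Dox 2), and in the interaction, where it gave 0 to 3 in place of 1 (0 without vector EtOH 2, vector EtOH 3 or JUN EtOH 1, and 3 without vector Dox 1) and DESeq2 gave 2. For the PI3K, AKT and FOXO list, leaving out single libraries gave 7 to 13 in place of 11 on induction in JUN cells (7 without JUN EtOH 1 or 2) and 0 to 1 in the interaction (1 without vector Dox 1), and only the libraries of the comparison gave 8 in place of 13 for JUN with induction. These fits hold fewer samples. The IGFBP3 interaction ranged from -2.31 to -1.79 and lost its call in 3 of 20 alternatives, without vector EtOH 2, vector EtOH 3 or JUN EtOH 1. Calls were kept in 12 of 21 alternatives for IGFBP6 on induction in JUN cells, in 12 of 21 for IGFBP7 and 17 of 21 for IRS2 with JUN under induction, in 17 of 21 for IGF1R on induction in JUN cells, in 12 of 21 for PIK3CD on induction in vector cells, in 17 of 21 for FOXO1 with JUN under induction and in 18 of 21 for SOCS3 on induction in JUN cells. IGFBP2 gave no value at a mean of 5 CPM, which removed it. Upper-quartile factors moved the share of higher calls on induction in vector cells from 52.0% to 43.4%. Over all genes the interaction called 165, with DESeq2 340 and with the GC covariate 272.

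Same-numbered libraries of different groups deviated together in part, with correlations of -0.258 to 0.466 over 18 pairs, 7 of them over 0.1. Of 36 matches, each among the 3 libraries of a group, 22 were best with the own number. With the replicate number as a block, 5, 7, 4, 7 and 1 members were called in the 5 comparisons, as without it, and the calls over all genes in the interaction went from 165 to 197. Per length of the longest transcript, levels of IGFBP3, IGF2R and others were higher, such as 31.9 in place of 18.4 CPM per kb for IGFBP3 in vector Dox. Depth limited values near the floor, as for SOCS1 in vector Dox and IGFBP2 in JUN cells.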
